A study of Mus musculus with 24 samples.

Results

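The genes described here are 10 genes of cell adhesion and epithelial junctions, chosen by their symbols among the 16617 genes of the deposited table. They are the cadherins Cdh1 and Cdh2, the adhesion molecule Epcam, the claudins Cldn4, Cldn6 and Cldn7, the tight junction scaffold Tjp1, the junctional adhesion molecules F11r and Jam2, and the splicing factor Esrp1. Messenger RNA was measured by sequencing its polyadenylated end in mouse embryonic stem cells of 4 lines in 2 states, with 3 samples in each of 8 groups per the labels. Naive cells carry the cell type label Naive_ESC. Formative cells were taken 63 h after withdrawal of LIF and 2 inhibitors. The lines were wild type, MLL3KO_MLL4fl, called floxed below, MLL3KO_MLL4KO, called knockout, and MLL3CD_MLL4CD, called catalytic-dead. Wild-type and catalytic-dead cells were R1 cells, and no parental line is labelled for the other two. MLL3 and MLL4, products of Kmt2c and Kmt2d, are histone methyltransferases that act at enhancers. By its label the floxed line lacks MLL3 too, so knockout against floxed compares cells that all lack MLL3 and differ in MLL4. Each genotype is 1 line, so a genotype and other differences between lines cannot be told apart.

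Cadherins are calcium-dependent receptors that join neighbouring cells at adherens junctions, where catenins link them to the actin cytoskeleton. Claudins seal the tight junctions that close the space between epithelial cells, and the scaffold protein ZO-1, the product of Tjp1, ties them to the cytoskeleton. When naive stem cells leave their ground state they pass into a state like the epiblast of the early postimplantation embryo, which is a polarised epithelium. E-cadherin, the product of Cdh1, is the main cadherin of both states, and N-cadherin, the product of Cdh2, replaces it in mesenchymal and neural descendants.

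Start-site windows are shown for 4 genes. Epcam, Cldn6 and Cldn7 were higher in formative cells of every line, and Cldn4 was lower. Tjp1 was also higher by level in every line, by 0.10 log2 in catalytic-dead cells, and its window is not shown. Each window runs from 250 bases before to 50 bases after an annotated start and comes from RefSeq on GRCm38.p6. Windows of 6 of the 10 genes were used (Epcam, Cldn4, Cldn6, Cldn7, Tjp1 and F11r), 7 windows in all because Cldn7 has 2 starts, and its second start is shown. Capitals mark the E-box CAGGTG or its reverse complement CACCTG, the letters that SNAIL and ZEB repressors are known to bind.
Epcam, chr17:87635729-87636028, plus strand: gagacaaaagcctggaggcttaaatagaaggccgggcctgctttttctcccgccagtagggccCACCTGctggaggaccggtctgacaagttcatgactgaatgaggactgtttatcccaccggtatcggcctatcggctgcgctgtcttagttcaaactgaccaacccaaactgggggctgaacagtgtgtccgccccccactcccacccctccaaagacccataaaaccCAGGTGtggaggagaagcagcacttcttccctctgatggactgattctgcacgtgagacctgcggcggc
Cldn6, chr17:23679115-23679414, plus strand: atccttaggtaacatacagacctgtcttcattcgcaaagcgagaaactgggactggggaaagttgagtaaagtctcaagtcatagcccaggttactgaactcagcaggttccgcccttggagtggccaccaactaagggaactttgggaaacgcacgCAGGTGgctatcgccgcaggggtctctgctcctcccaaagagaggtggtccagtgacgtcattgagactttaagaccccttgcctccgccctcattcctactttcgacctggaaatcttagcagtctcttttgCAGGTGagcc
Cldn7, chr11:69965171-69965470, plus strand: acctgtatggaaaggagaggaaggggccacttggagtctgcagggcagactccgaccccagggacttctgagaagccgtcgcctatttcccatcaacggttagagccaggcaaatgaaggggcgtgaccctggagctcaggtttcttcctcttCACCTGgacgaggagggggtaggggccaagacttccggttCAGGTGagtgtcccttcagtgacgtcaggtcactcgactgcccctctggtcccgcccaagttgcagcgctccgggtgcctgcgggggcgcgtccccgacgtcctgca
Cldn4, chr5:134946885-134947184, minus strand: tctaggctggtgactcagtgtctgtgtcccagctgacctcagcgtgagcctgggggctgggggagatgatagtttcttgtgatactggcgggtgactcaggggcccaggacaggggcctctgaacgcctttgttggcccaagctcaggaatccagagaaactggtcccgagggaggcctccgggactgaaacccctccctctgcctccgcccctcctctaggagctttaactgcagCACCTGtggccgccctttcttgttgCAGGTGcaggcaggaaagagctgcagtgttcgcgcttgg

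Each of these 4 windows held 2 E-box matches. The F11r window held 1 match, and the Tjp1 window and the first Cldn7 window held 0, so the windows shown are those with the most matches. Thus 5 of 7 windows held the motif on either strand, beside 20.2% of all 32851 windows of the same length. The palindrome AACCGGTT, a form of the motif bound by Grainyhead-like factors, was in 0 of the 7 windows and in 0.146% of all windows. The motif was present both in windows of genes that were higher and in the window of the gene that was lower in formative cells, and a match is a description of letters only.

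The deposited values are group means of log2 CPM (the tags of a gene divided by the size of its library), to which a prior count of 2 was added before the logarithm was taken. Whole counts of single libraries could be solved from these means where a gene was not too abundant. They were obtained in all 8 groups for Cdh2, Cldn7 and Tjp1, in 7 for Esrp1, in 5 for Jam2, in 4 for Epcam and Cldn6, in 2 for Cldn4, in 1 for F11r and in 0 for Cdh1. Where they were not, a group has a level with no SD, and a comparison within 1 line or state has a value with no test. Library totals ran from 4808564 to 15425959 counts. The naive wild-type column averaged 2 libraries. The formative knockout column averaged 4, of which 1 was also in the formative catalytic-dead column and was assigned there, since it correlated with the other formative catalytic-dead libraries (mean r of 0.577) more than with formative knockout (0.068). Formative knockout levels of Cdh1, Epcam, Cldn4, Cldn6 and F11r are approximations for this reason. Markers followed the labelled states. The 8 naive pluripotency genes summed to 2320 to 2694 CPM in naive and 479 to 635 CPM in formative groups, and the 7 formative genes to 101 to 177 and 1459 to 2350 CPM. Pou5f1, a defining pluripotency factor, was read at only 5.58 to 9.54 CPM. Fibroblast and feeder markers summed to 3.21 to 27.7 CPM over the 5 of 8 in the table. Kmt2c stood at 15.7 to 23.4 CPM in the floxed and knockout groups and at 35.4 to 67.4 CPM in the others. Kmt2d stood at 17.6 CPM in naive and 20.2 in formative knockout and at 28.8 and 25.5 in floxed cells. It stood at 29.0 CPM in naive and 35.7 in formative wild type and at 27.6 and 20.3 in catalytic-dead cells. A tag at the end of a transcript need not lie in the deleted part.

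Across the 4 lines the formative state came with more RNA of 5 of the 10 genes and less of 2. Esrp1, Cldn6, Cldn7 and Epcam rose by 4.40, 4.05, 3.23 and 2.97 on the log2 scale and Tjp1 by 0.82, while Jam2 fell by 2.79 and Cldn4 by 0.43. Cdh1, Cdh2 and F11r did not pass the test. The test was limma on the 8 group levels with the line as a block, 4 pairs in all, past a Benjamini-Hochberg adjusted p of 0.05 over all 16617 genes. In that test 19.8% of all genes rose and 9.56% fell, and the median difference was 0.12 over all genes. In bulk RNA, fewer cells of a type and less RNA per cell cannot be told apart.

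**Figure D1:**
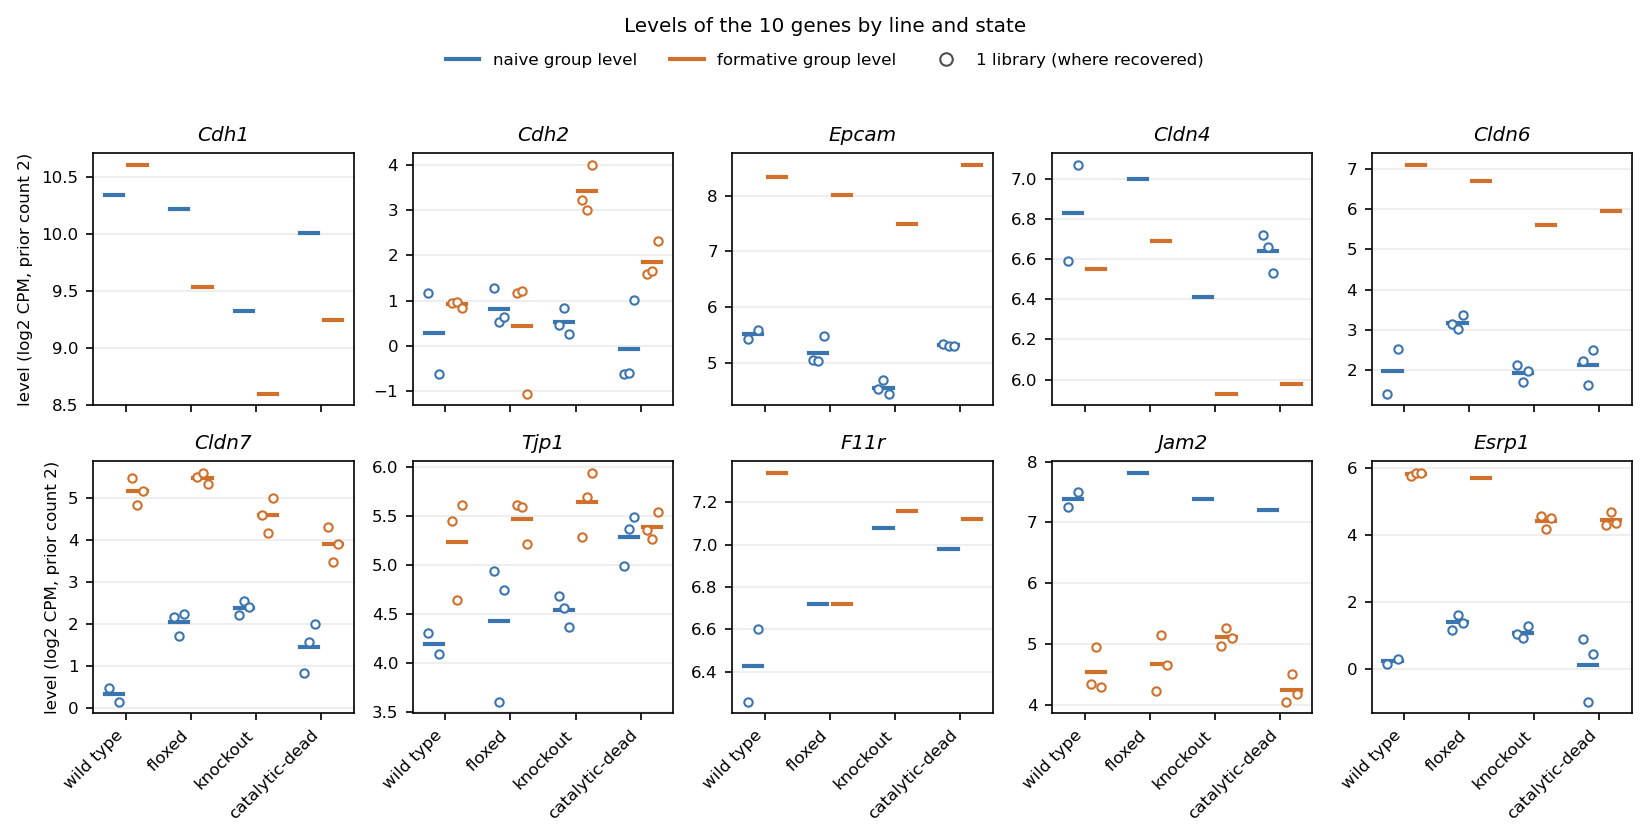
Level of each of the 10 genes (log2 CPM, prior count 2, vertical axis with its own range per panel) in the 4 lines; blue is naive and orange formative, a bar is the group level and a circle 1 library where library values were recovered. Epcam, Cldn6, Cldn7 and Esrp1 had all formative bars above all naive bars, Jam2 the reverse, and Cdh2 stood highest in formative knockout cells.

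Cdh1 (chr8:106603351-106670246, plus strand, GRCm38 with GENCODE vM21 here and below) was abundant and had no recovered library counts, so its values carry no SD. In naive cells it stood at 1297 CPM in wild type, 1189 in floxed, 1032 in catalytic-dead and 645 in knockout. In formative cells it stood at 1558 CPM in wild type, 743 in floxed, 610.4 in catalytic-dead and 387 in knockout, or 434 with the formative knockout column as deposited. The order of the lines was therefore the same in both states, with wild type highest and knockout lowest, and whether neighbours in it differ beyond their spread cannot be given. From naive to formative the difference was 0.26 in wild type against -0.68, -0.74 and -0.76 in floxed, knockout and catalytic-dead cells on the log2 scale. Over the 4 lines it was -0.48 (SE 0.18, adjusted p = 0.0712), lower in 3 of 4 lines. This value passed the test with scaling by median-of-ratios size factors (-0.55, adjusted p = 0.0439) and without the wild-type line (-0.72, adjusted p = 0.00729).

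Cdh2 (chr18:16588877-16809246, minus strand) was near the detection limit in most groups and stood apart in formative knockout cells. Its counts were 29 and 4 in naive wild type, 24, 13 and 9 in naive floxed, 18, 18 and 8 in naive knockout and 4, 3 and 11 in naive catalytic-dead libraries. In formative cells they were 24, 18 and 12 in wild type, 27, 25 and 3 in floxed, 91, 55 and 76 in knockout and 39, 31 and 33 in catalytic-dead libraries. All 3 formative knockout libraries exceeded every other library, and all 3 formative catalytic-dead libraries exceeded the remaining ones. Scaled for depth, formative knockout libraries held 9.12, 7.85 and 15.8 CPM and formative catalytic-dead libraries 2.79, 2.93 and 4.77. The group levels in formative cells were 3.41 ± 0.52 log2 CPM in knockout, 1.85 ± 0.40 in catalytic-dead, 0.93 ± 0.07 in wild type and 0.45 ± 1.30 in floxed (SD, n = 3 each). The spread of the wild-type, floxed and naive groups overlapped. Over the 4 lines the difference between states was 1.27 (SE 0.49, adjusted p = 0.0835), and 1.82 (adjusted p = 0.0349) without the floxed line.

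Epcam (chr17:87635979-87651129, plus strand) encodes a homophilic adhesion molecule of epithelia that binds claudins. Naive libraries held 42.8 and 48.0 CPM in wild type, 32.7, 32.4 and 44.1 in floxed, 22.9, 25.4 and 21.5 in knockout and 40.2, 39.3 and 38.9 in catalytic-dead cells. The 3 naive knockout libraries lay below every other naive library. The formative levels, without library values, were 324 CPM in wild type, 259 in floxed, 182 in knockout (218 as deposited) and 377 in catalytic-dead cells. The log2 differences between states were alike in size, 2.83, 2.84, 2.95 and 3.25 in wild type, floxed, knockout and catalytic-dead cells, and their mean passed the test (2.97, SE 0.12, adjusted p = 8.92e-06).

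Cldn6 (chr17:23679249-23682446, plus strand), a claudin of embryonic epithelia, was low in naive cells and far higher in formative cells of every line. Naive libraries held 2.46 and 5.54 CPM in wild type, 8.66, 7.88 and 10.1 in floxed, 4.15, 3.02 and 3.71 in knockout and 4.47, 2.89 and 5.41 in catalytic-dead cells. All 3 naive floxed libraries lay above the 8 other naive libraries. Formative levels were 138 CPM in wild type, 105 in floxed, 49.2 in knockout (52.2 as deposited) and 62.4 in catalytic-dead cells. The differences between states were 5.14, 3.53, 3.69 and 3.85 log2 in the same order, with a mean of 4.05 (SE 0.26, adjusted p = 3.62e-05).

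Cldn7 (chr11:69964779-69967885, plus strand), the claudin best known as the partner of EPCAM, had library counts in every group. Naive libraries held 17 and 8 counts in wild type, 46, 32 and 30 in floxed, 68, 63 and 41 in knockout and 14, 18 and 23 in catalytic-dead cells. Formative libraries held 618, 287 and 270 counts in wild type, 585, 570 and 425 in floxed, 236, 125 and 153 in knockout and 274, 115 and 101 in catalytic-dead cells. Every formative library stood above every naive library in CPM. The formative order was floxed (5.47 ± 0.14 log2 CPM), wild type (5.16 ± 0.33), knockout (4.58 ± 0.41) and catalytic-dead (3.89 ± 0.42; SD, n = 3 each), with overlap of libraries between the first pair, between wild type and knockout, and between knockout and catalytic-dead. The naive order differed, with wild type lowest at 0.32 ± 0.24 (n = 2) and knockout highest at 2.38 ± 0.17 (n = 3).

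Cldn4 (chr5:134945119-134946934, minus strand), a claudin of tight epithelia, was the 1 claudin among the 3 that fell. Its levels were 114 CPM in naive and 94.0 in formative wild type, 128 and 104 in floxed, 85.0 and 61.0 in knockout, and 99.4 and 63.3 in catalytic-dead cells. Naive wild-type libraries held 96.4 and 135 CPM and naive catalytic-dead libraries 105, 101 and 92.5, which overlap. The differences between states were -0.28, -0.31, -0.48 and -0.65 log2 in wild type, floxed, knockout and catalytic-dead cells. Their mean passed the test (-0.43, SE 0.12, adjusted p = 0.0285), but not without the wild-type line (adjusted p = 0.0603), the floxed line (0.0858) or the catalytic-dead line (0.106).

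Tjp1 (chr7:65296165-65527781, minus strand) was lower in naive than in formative cells of 3 lines, and the states overlapped in the other line. Wild-type libraries held 19.7 and 16.9 CPM when naive and 43.4, 24.7 and 48.8 when formative. Floxed libraries held 30.6, 12.0 and 26.4 CPM when naive and 48.7, 47.9 and 36.9 when formative, and knockout libraries 25.4, 23.3 and 20.5 against 38.7, 51.2 and 61.1. Catalytic-dead libraries held 31.5, 41.2 and 44.8 CPM when naive and 41.0, 38.2 and 46.2 when formative. The states were therefore separate in the first 3 lines and overlapped in catalytic-dead cells. The mean over lines was 0.82 (SE 0.19, adjusted p = 0.0119), and it did not pass the test without the wild-type line (0.75, adjusted p = 0.0628) or the floxed line (0.74, adjusted p = 0.0704). Gene models Gm44792 and Gm44794 overlap Tjp1 on the same strand in GENCODE vM21, where counting by strand would not separate them. Gm44795 overlaps it on the other strand, and whether reads were counted by strand is not stated in the sources.

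Jam2 (chr16:84774123-84825928, plus strand), an adhesion receptor of the immunoglobulin family, went the opposite way to most of the others. Naive levels were 167 CPM in wild type (libraries at 154 and 180.3), 225 in floxed, 166 in knockout and 147 in catalytic-dead cells. Formative libraries held 20.2, 31.0 and 19.5 CPM in wild type, 18.6, 35.4 and 25.1 in floxed, 31.3, 38.1 and 34.3 in knockout and 16.5, 22.7 and 17.9 in catalytic-dead cells. No formative library came near the naive levels, and the mean difference was -2.79 (SE 0.16, adjusted p = 2.16e-05). The rRNA gene model Gm25908 overlaps Jam2 on the same strand. F11r (chr1:171437535-171464603, plus strand), which encodes the related receptor JAM-A of epithelial tight junctions, stood at 86.4 CPM in naive and 162 in formative wild type, 106 and 105 in floxed, 135 and 143 in knockout, and 126 and 139 in catalytic-dead cells. Its mean difference of 0.28 (SE 0.16, adjusted p = 0.229) did not pass the test.

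Esrp1 (chr4:11331933-11386783, minus strand) encodes an RNA-binding protein that directs epithelial splice forms. Naive libraries held 13 and 9 counts in wild type, 22, 30 and 16 in floxed, 29, 19 and 18 in knockout and 15, 2 and 7 in catalytic-dead cells. Formative libraries held 753, 589 and 440 counts in wild type, 233, 125 and 109 in knockout and 273, 268 and 140 in catalytic-dead cells, and the formative floxed level was 52.8 CPM. Formative levels fell into 2 ranges, 5.83 ± 0.06 log2 CPM in wild type and 5.72 in floxed cells against 4.42 ± 0.21 in knockout and 4.44 ± 0.20 in catalytic-dead cells (SD, n = 3 where given). The mean difference between states was 4.40 (SE 0.33, adjusted p = 6.94e-05). The lincRNA Gm26663 overlaps Esrp1 on the other strand and the antisense gene Gm15485 overlaps Cdh2, and reads of such pairs cannot be told apart without strand-aware counting.

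Within each line the comparison of formative with naive cells used library values and all 8 groups in 1 limma model. In wild type, 3 of 5 tested genes rose, namely Esrp1 (5.61, SE 0.43), Cldn7 (4.84, SE 0.51) and Tjp1 (1.03, SE 0.29), and Jam2 fell (-2.84, SE 0.23), beside 20.8% of all tested genes that rose and 12.7% that fell. Cdh2 had a difference of 0.65 (SE 0.62, adjusted p = 0.464) there. In floxed cells Cldn7 (3.43, SE 0.30) and Tjp1 (1.04, SE 0.25) rose, 2 of 3 tested beside 23.5% of all, and Cdh2 had -0.37 (SE 0.55, adjusted p = 0.642). In knockout cells all 4 tested genes rose, beside 22.6% of all: Esrp1 (3.33, SE 0.31), Cdh2 (2.89, SE 0.47), Cldn7 (2.20, SE 0.28) and Tjp1 (1.10, SE 0.24). In catalytic-dead cells Esrp1 (4.32, SE 0.40), Cldn7 (2.43, SE 0.39) and Cdh2 (1.92, SE 0.60) rose, 3 of 4 tested beside 19.0% of all, and Tjp1 had 0.10 (SE 0.24, adjusted p = 0.787). Genes without library counts had no test. Jam2, untested outside wild type, had -3.13, -2.26 and -2.94 in floxed, knockout and catalytic-dead cells. In knockout cells the untested Cdh1 and Cldn4 had -0.74 and -0.48, and Cldn6, Epcam and F11r had 3.69, 2.95 and 0.08.

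**Figure D2:**
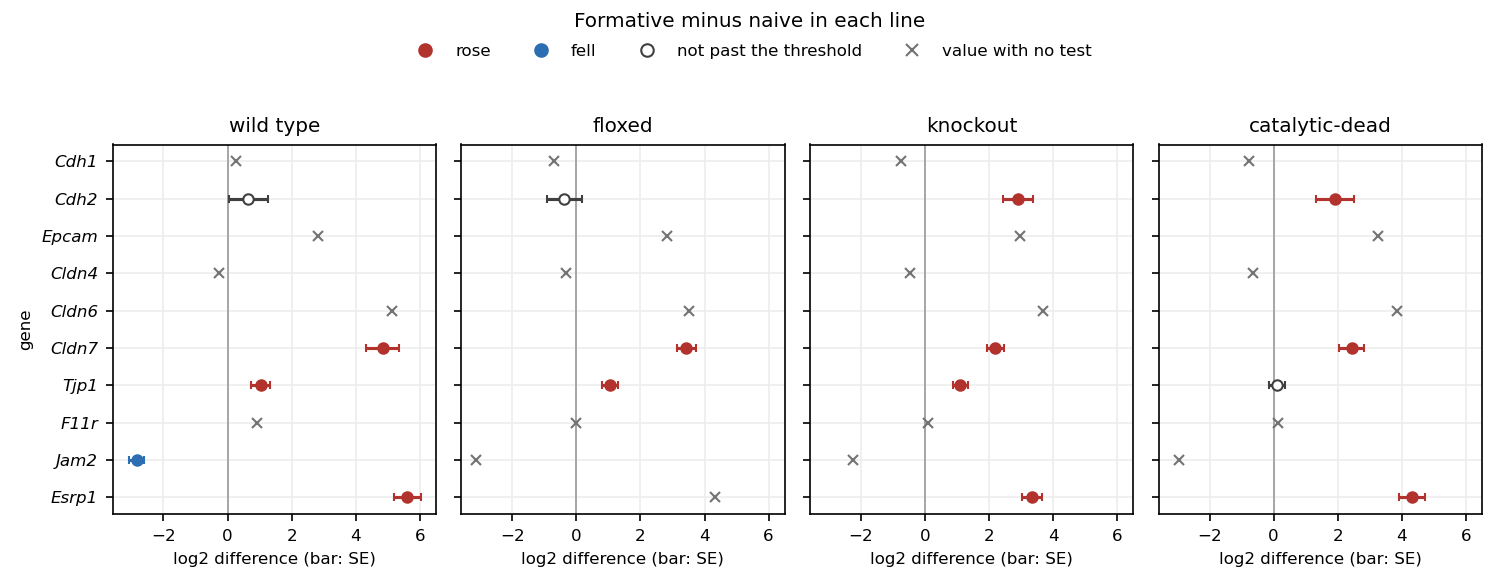
Formative minus naive difference of each gene (log2, horizontal axis) in the 4 lines; filled circles passed the test, open circles did not, bars are the SE, and crosses are differences of group levels with no test. Cdh2 is past the threshold in knockout (2.89) and catalytic-dead cells (1.92), and not in wild type (0.65) or floxed cells (-0.37).

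Of the differences that did not pass, Cdh2 was -0.24 in wild type without naive wild-type library b and 0.37 in floxed cells without formative floxed library c, and Tjp1 was -0.04 in catalytic-dead cells without naive catalytic-dead library a. The call of Tjp1 in wild type ended without naive wild-type library b (0.92, adjusted p = 0.0504), and that of Cdh2 in catalytic-dead cells ended without naive catalytic-dead library a (1.64, adjusted p = 0.0838) or b (1.65, adjusted p = 0.0755). Scaling by median-of-ratios size factors moved the median difference of all tested genes from 0.16, 0.19 and 0.28 to 0.01, 0.04 and 0.01 in wild type, floxed and knockout cells. It moved the split of genes that rose and fell from 2667 and 1632 to 2204 and 2041 in wild type, from 2822 and 1472 to 2337 and 1928 in floxed and from 2666 and 746 to 1839 and 1290 in knockout cells. In catalytic-dead cells the median moved from 0.12 to 0.04 and the split from 2388 and 1497 to 2203 and 1759. The calls of the genes tested in these 4 comparisons did not depend on that scaling.

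The size of the response to withdrawal differed between lines for 2 genes. Cdh2 responded more in knockout than in floxed cells, by 3.26 (SE 0.72, adjusted p = 0.00217), as the mean of 2.89 against -0.37 shows. Cldn7 responded less in knockout than in floxed cells, by -1.22 (SE 0.41, adjusted p = 0.0498), and less in catalytic-dead than in wild-type cells, by -2.41 (SE 0.64, adjusted p = 0.0229). These were 1 of 3 genes higher and 1 of 3 lower, beside 6.13% and 3.91% of all tested genes, and for catalytic-dead against wild type 1 of 4 tested genes passed beside 4.16% in either direction. For catalytic-dead against wild type, Esrp1 (-1.29, SE 0.60, adjusted p = 0.244), Cdh2 (1.27, SE 0.86, adjusted p = 0.461) and Tjp1 (-0.93, SE 0.37, adjusted p = 0.157) did not pass the test. The Cdh2 difference was 2.52 (adjusted p = 0.0111) without formative floxed library c, which held 3 counts. The Cldn7 difference between knockout and floxed cells did not pass in 11 of 19 alternatives, 10 of which left out 1 library (adjusted p from 0.0213 to 0.123 over all 19), and that between catalytic-dead and wild-type cells did not pass when naive wild-type library a (adjusted p = 0.136) or b (0.0945), or naive catalytic-dead library b (0.0534) or c (0.0884), was left out. All-gene counts for knockout against floxed were 680 higher and 434 lower, or 590 and 576 with size factors.

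Knockout cells were then set against floxed cells within each state, a comparison of MLL4 loss among cells without MLL3. In naive cells Cldn6 fell by 1.25 (SE 0.30, adjusted p = 0.00351) and Epcam by 0.63 (SE 0.17, adjusted p = 0.00863), 2 of 6 tested genes beside 10.1% of all. The other 4 tested genes had differences from -0.31 (Esrp1) to 0.34 (Cldn7), and the untested Cdh1, Cldn4, Jam2 and F11r had -0.88, -0.59, -0.44 and 0.36. The Epcam call ended without naive floxed library c (-0.48, adjusted p = 0.0612) and with only these 2 groups in the model (adjusted p = 0.0552). Markers of other cell types also differed in level between these groups. The 4 primitive endoderm markers in the table, of 7 listed, summed to 31.7 CPM in naive knockout and 4.48 CPM in naive floxed cells, with Dab2 at 24.9 against 2.53 and Foxa2 at 4.87 against 0.724, while the defining factors Gata6 and Gata4 were at 0.687 and 1.29 CPM in knockout. The 8 trophoblast markers, of 9 listed, summed to 219 against 113 CPM, with Tfap2c at 144 against 75.2, Krt18 at 44.5 against 12.5 and Cdx2 at 3.42 against 0.516, while Eomes was at 1.81 against 13.1 and Hand1 at 0.376 against 0.205. Their part in the Cldn6 and Epcam values was not tested.

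In formative cells Cdh2 rose by 2.96 in knockout against floxed (SE 0.44, adjusted p = 5.46e-06) and Cldn7 fell by 0.88 (SE 0.20, adjusted p = 0.00174), 1 of 4 tested genes in each direction beside 11.8% and 7.25% of all. The 3 knockout libraries of Cldn7, at 23.7, 17.8 and 31.8 CPM, lay below the 3 floxed libraries at 44.7, 48.3 and 39.7. Tjp1 (0.16, SE 0.23, adjusted p = 0.676) and Jam2 (0.43, SE 0.20, adjusted p = 0.143) did not pass, and Jam2 did without formative floxed library b (0.67, adjusted p = 0.028). Of the untested genes Esrp1 had -1.31, Cldn6 -1.09, Cdh1 -0.94, Cldn4 -0.76, Epcam -0.51 and F11r 0.44. Without formative floxed library c the Cdh2 difference was 2.21 (adjusted p = 2.20e-04).

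Set against the other formative groups, other markers also differed in level in formative knockout cells. The 6 mesoderm and mesenchyme markers in the table, of 8 listed, summed to 602 CPM there against 167 to 187 in the other formative groups, with Vim at 378 against 44.6 to 70.2 and Twist1 at 17.9 against 6.54 to 6.63. Fn1 was at 203 CPM against 105 to 111. The naive groups held more Fn1, at 262 to 321 CPM, and their mesoderm and mesenchyme markers summed to 323 to 416 CPM. T, a defining mesoderm marker, was lowest in formative knockout cells, at 0.636 CPM against 1.24 to 7.58, and Mixl1 (1.30 against 0.908 to 2.40) and Snai2 (1.56 against 0.692 to 3.05) lay within the range of the others. The 5 neuroectoderm markers summed to 145 CPM against 75.2 to 88.4, with Sox1 at 46.4 against 7.08 to 22.4, Zic1 at 20.7 against 1.55 to 1.82 and Tubb3 at 41.7 against 20.1 to 23.1. Tubb3 was already at 39.2 CPM in naive knockout cells. Pax6 was lowest there, at 3.69 against 3.96 to 8.62, and Nes, at 32.1, lay within 19.4 to 52.3 CPM. Primitive endoderm markers summed to 18.6 CPM in formative knockout and 10.4 in formative floxed cells, and trophoblast markers to 84.2 and 98.0. Their part in the Cdh2 values was not tested.

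Catalytic-dead cells were set against wild type in the same way, both in R1 cells. In naive cells Tjp1 rose by 1.08 (SE 0.29, adjusted p = 0.0138), the 1 of 6 tested genes that passed, beside 12.8% of all in either direction, and its 3 catalytic-dead libraries lay above both wild-type ones. This call ended when either naive wild-type library (adjusted p = 0.0893 for a, 0.0855 for b) or naive catalytic-dead library c (0.0563) was left out. Cldn7 had 1.14 (SE 0.60, adjusted p = 0.232), the other 4 tested genes had -0.35 (Cdh2) to 0.15 (Cldn6), and the untested Cdh1, Cldn4, Jam2 and F11r had -0.33, -0.20, -0.18 and 0.54. Without weights in the limma model Cldn7 did pass (adjusted p = 0.0138). Primitive endoderm markers summed to 54.3 CPM in naive catalytic-dead and 5.63 CPM in naive wild-type cells, with Dab2 at 49.6 against 3.45, while Gata6 and Gata4 were at 1.28 and 1.22 CPM in catalytic-dead cells. Trophoblast markers summed to 157 against 144 CPM. Tfap2c, the most abundant of them, was lower, at 88.2 against 121, and the others were higher, with Krt18 at 28.7 against 5.75. The part of these primitive endoderm and trophoblast markers in the Tjp1 value was not tested. In formative cells Esrp1 fell by 1.39 (SE 0.16, adjusted p = 6.09e-07) and Cldn7 by 1.27 (SE 0.21, adjusted p = 7.86e-05), 2 of 5 tested genes beside 4.26% of all, and in both genes the 2 groups did not overlap. Cdh2 had 0.92 (SE 0.48, adjusted p = 0.248), Tjp1 0.16 and Jam2 -0.29, and none of them passed. The untested Cdh1 had -1.35, Cldn6 -1.15, Cldn4 -0.57, F11r -0.22 and Epcam 0.22. Fibroblast and feeder markers summed to 27.7 CPM in formative catalytic-dead against 10.2 in formative wild-type cells, and primitive endoderm markers to 26.8 against 16.9; their part in these values was not tested. Over all tested genes the split of higher and lower was 1032 and 692 in naive and 709 and 522 in formative cells, or 652 and 931 and 554 and 671 with size factors.

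**Figure D3:**
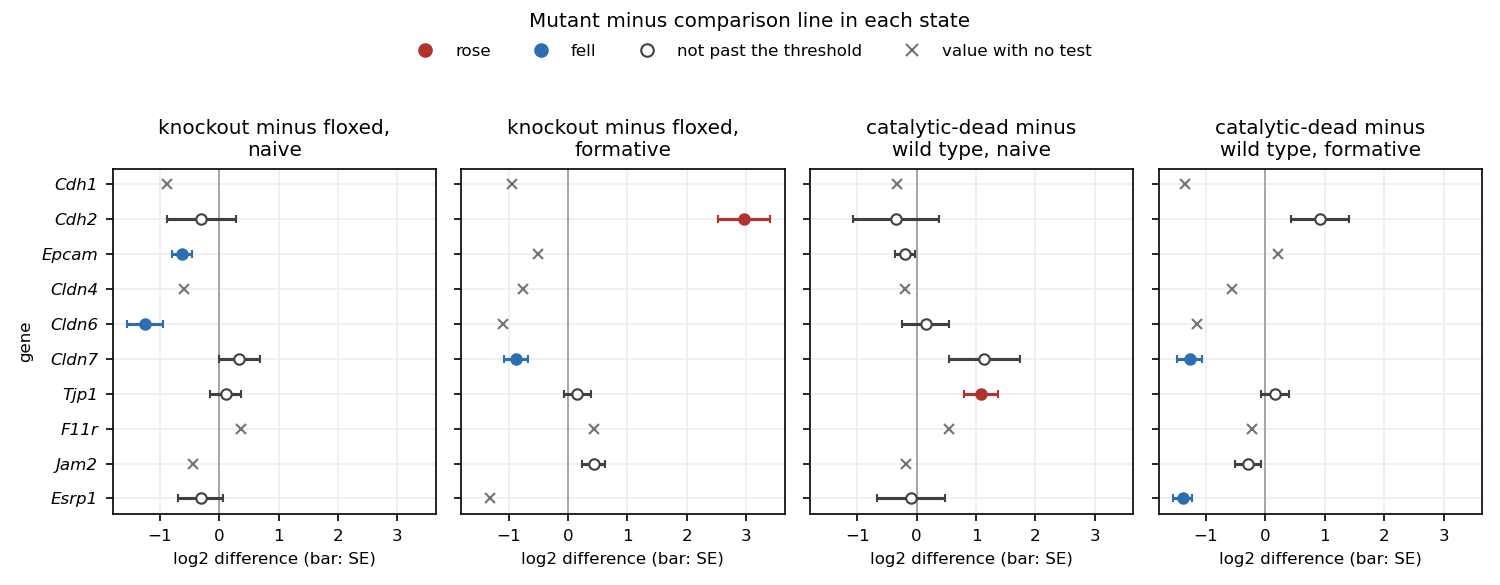
Difference of each gene (log2, horizontal axis) between knockout and floxed and between catalytic-dead and wild-type cells, in each state; filled circles passed the test, open circles did not, bars are the SE and crosses are differences of group levels with no test. Cdh2 (2.96) in formative knockout cells lies farthest to the right, and Cldn7 lies left of 0 in both formative panels (-0.88 and -1.27).

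Floxed cells against wild type join the loss of MLL3 with the change of line. In naive cells Cldn6 rose by 1.21 (SE 0.34, adjusted p = 0.0362), the 1 of 6 tested genes that passed, beside 5.81% of all in either direction, but not when naive wild-type library a (0.65, adjusted p = 0.487) or naive floxed library a (1.22, adjusted p = 0.0599) or c (1.11, adjusted p = 0.0925) was left out, or with these groups alone (adjusted p = 0.27). Cldn7 (1.72, SE 0.56, adjusted p = 0.0628) and Esrp1 (1.17, SE 0.50, adjusted p = 0.194) did not pass, nor did Cdh2 (0.54), Epcam (-0.33) and Tjp1 (0.23). Without weights in the limma model Cldn7 and Esrp1 did pass (adjusted p = 0.042 for Esrp1). In formative cells 0 of 4 tested genes passed with limma, adjusted or at an unadjusted p under 0.05, beside 10.9% of all genes called, and 0 passed under any alternative limma fit. Their differences were -0.48 for Cdh2, 0.31 for Cldn7, 0.24 for Tjp1 and 0.14 for Jam2. The untested Cdh1 had -1.07 there, F11r -0.62, Cldn6 -0.40, Epcam -0.32, Esrp1 -0.11 and Cldn4 0.14.

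The other genes of these structures were taken from 10 lists of 93 genes, of which 77 were in the table. Over the 4 lines 31 of the 77 rose and 13 fell with the formative state, beside 19.8% and 9.56% of all genes. The median difference was 0.42 beside 0.12 over all genes. The same shares apply to the count of each list below, and in lists of few genes a count near them is a description only. Tight junction membrane and scaffold genes rose in 9 of 12 and the other 3 did not pass, with a median of 1.64. They included Marveld3 (3.01) and Marveld2 (2.42), which encode tight junction membrane proteins, and Mpdz (2.38), a multivalent scaffold. Of the other claudins 3 of 4 rose: Cldn1 (2.93), Cldn3 (1.38) and Cldn9 (1.32). Cldn1 and Cldn9 were low, at 0.246 to 2.91 and 0.318 to 1.92 CPM over the 8 groups, where the lowest value possible was 0.205 CPM. Cldn9 and Cldn6 lie 137 bases apart on chromosome 17. Cldn3 lies 39279 bases from Cldn4 on chromosome 5, so one gene of that pair rose and its neighbour fell. Both pairs are paralogs, and reads that match both members of a pair could affect these values, which was not tested.

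Genes of apical polarity rose in 4 of 10 and the other 6 did not pass, led by Crb3 (3.20), which encodes a Crumbs protein of the apical membrane, with Pard6b (0.74) and Pard3 (0.52) of the PAR complex. Cadherins other than the pair above rose in 3 of 5, namely P-cadherin Cdh3 (2.31), Cdh6 (1.31) and Cdh4 (1.02), with levels of 0.363 to 10.6 CPM over the 8 groups. Among 8 catenin and plaque genes Ctnna2 (2.94) and Afdn (0.94) rose and Jup, which encodes plakoglobin, fell (-1.51). Ctnna2 was low, at 0.224 to 4.65 CPM over the 8 groups. Of 7 desmosome genes Pkp2 (1.68) and Perp (0.86) rose and Dsg2 fell (-1.02). Nectins and other receptors were split, with L1cam (1.61, at 0.326 to 2.60 CPM) and Nectin3 (1.31) up and Ncam1 (-1.06), Mcam (-1.01) and Bcam (-0.82) down of 9. Gap junction genes were split too, with Gja1 (2.36) up and Gjb5 (-2.47) among those down.

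Regulators of the epithelial state moved both ways, 2 of 9 up and 5 down with a median of -1.06. Grhl2 (3.01) and Ovol2 (1.66), transcription factors of epithelial gene programmes, rose, and Grhl3 (-3.82), Klf4 (-1.63) and Klf5 (-1.60) were among those that fell. The transition factors Twist1 (2.36), Snai3 (2.11) and Zeb2 (1.69) rose and Zeb1 fell (-1.23), 4 of 8, with a median of 0.14. Snai1 and Snai2, which encode repressors of Cdh1, were at 1.32 to 6.47 CPM and 0.692 to 3.05 CPM over the 8 groups.

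**Figure D4:**
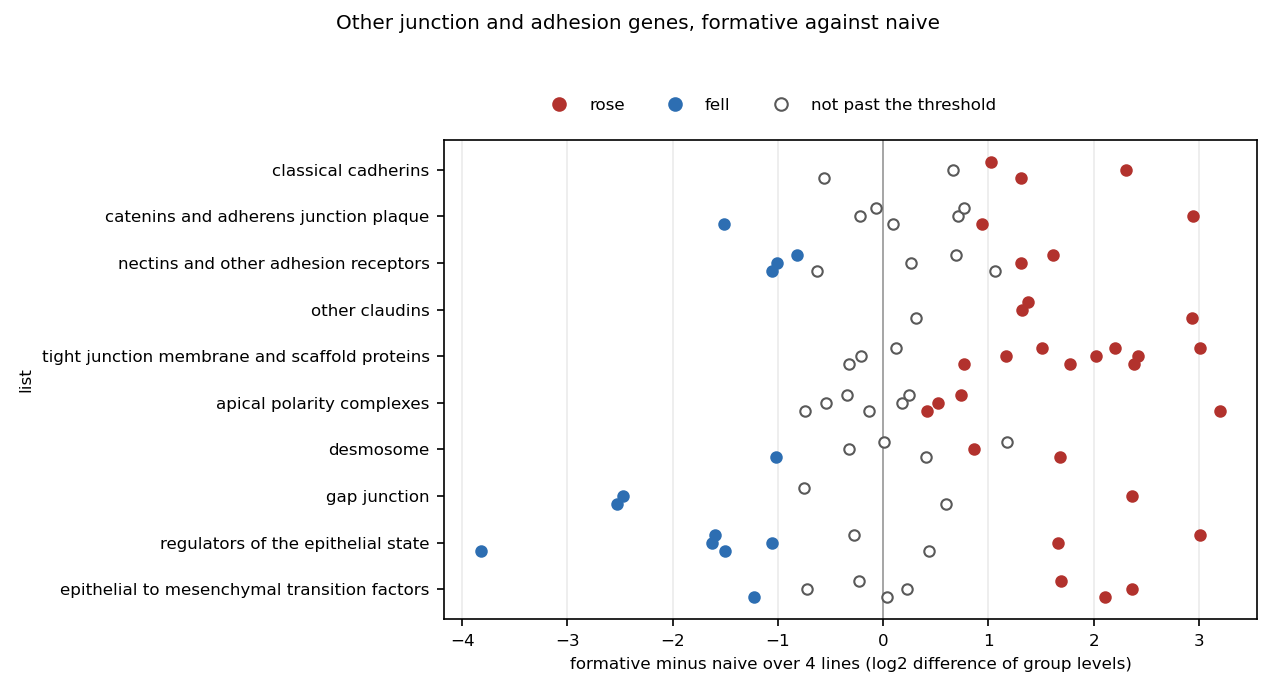
Formative minus naive difference over the 4 lines (log2 difference of group levels, horizontal axis) for the 77 other junction, adhesion and regulator genes, 1 point per gene, by list; red rose, blue fell and open points did not pass the test. Tight junction genes hold 9 red and no blue points, and regulators of the epithelial state hold 2 red and 5 blue points.

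In formative knockout against floxed cells 8 of 49 tested list genes rose and 8 fell, beside 11.8% and 7.25% of all tested genes, with a median of 0.02 beside 0.06 over all. All 3 tested claudins fell, Cldn9 (-2.04), Cldn3 (-1.91) and Cldn1 (-1.44), as did Tjp3 (-2.08), Marveld3 (-1.77) and Crb3 (-2.93). Low levels limit some of these genes. Formative floxed and knockout cells held 1.92 and 0.468 CPM of Cldn9 and 2.91 and 1.07 CPM of Cldn1. Gjb2, named below, was at 0.205 to 1.30 CPM over the 8 groups. Twist1 (1.43), Zeb2 (1.85) and Snai1 (1.99) rose, 3 of 6 tested transition factors, and so did the cadherin Cdh6 (2.67), the desmosomal cadherin Dsc2 (adjusted p = 0.00122), the receptors Mcam (1.36) and Ncam1 (1.13) and the gap junction gene Gjc1 (0.88), while Cdh3 (-0.92) and the gap junction gene Gjb2 (-1.92) fell. When formative, catalytic-dead set against wild-type cells had 4 of 58 list genes that rose and 8 that fell, beside 5.78% and 4.26% of all, with a median of -0.12 beside 0.06. Those that rose were the transition factor Snai2 (2.14), the polarity gene Pard6b (1.05), the adhesion receptor Ncam1 (1.01) and the tight junction scaffold Magi1 (0.60). Of the same tight junction list Marveld3 (-1.25) and Patj (-0.68) fell, as did the desmosome genes Pkp2 (-0.99) and Perp (-0.50), the regulator Grhl1 (-1.22), Cdh4 (-1.08), Snai3 (-1.06) and Bcam (-0.63). In naive knockout against floxed cells 7 of 50 list genes rose and 3 fell, beside 8.91% and 10.1% of all, with a median of -0.01 both for the lists and over all. Dsc2 (3.50), Zeb2 (2.51) and Mpdz (1.88) were among those that rose, and Ovol2 (-1.17), Cgn (-0.92) and Cgnl1 (-0.89) were those that fell. When naive, catalytic-dead cells set against wild type had 7 of 61 that rose and 4 that fell, beside 7.68% and 5.15% of all, with a median of 0.25 beside 0.13. Dsc2 (2.99), Gjb2 (2.01) and Magi1 (1.47) were among those that rose, and Cdh4 (-3.02), Mcam (-1.68), Jam3 (-0.85) and Ncam1 (-0.60) were those that fell.

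Genes with the most similar profile over the 8 group levels were ranked by Pearson correlation among 8961 genes with a range of at least 1.0 log2, a description over groups that share lines and states. For Esrp1 they were Galnt3 (r = 0.994), Stard10 (0.992) and Ppl (0.990). For Cldn6 they were Jph4 (0.995), Rspo1 (0.992) and Tmcc3 (0.991), for Cldn7 Exosc7 (0.985), Drd4 (0.983) and Plpp5 (0.982), and for Epcam Foxn3 (0.991), Pcsk2os1 (0.990) and Mmp25 (0.988). For Cdh2 they included Nectin4 (0.976) and Klhl4 (0.956). For Cdh1 they were Mip (0.947), Disp3 (0.945) and Ecm2 (0.941). For Cldn4 they were Kcnh3 (0.988), Nsg2 (0.938) and Echdc2 (0.909), for Tjp1 Efhd2 (0.977), Csnk1g2 (0.976) and Slitrk4 (0.976), for Jam2 Calcoco2 (0.987), Pcolce (0.983) and Lap3 (0.982), and those of F11r included C030006K11Rik (0.959) and Dgat2 (0.927).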

How the data were processed

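RNA was sequenced by 3' end capture from 24 samples of 8 groups, with 200 ng of input and single-end reads of 50 bases, per the labels' protocols. The submitters' processing notes name cutadapt 2.5, STAR, featureCounts in Subread 1.6.4, FastQC 0.11.8, MultiQC and the build mm10. The deposited values were found to be the authors' group means of log2 CPM to which a prior count of 2, in proportion to each library's size, had been added. Columns were matched to groups by name, and the columns named CKO were read as the floxed line. The genes and lists were chosen with earlier results of these data known.

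Library sizes were solved from genes with a count in 1 library, which gave 23 libraries within 0.047 of whole numbers. A gene's counts were accepted where 1 whole-number solution lay within a window of at most 2.0 log2 and the solutions expected by chance were at most 0.01, or within 1.0 log2 and at most 1.0. Both limits were chosen once the yield was known, and a gene whose libraries spread beyond its window could be missed or misread. Of all genes 65.3% had counts in all groups. The smallest p of exact sign flips over 4 lines is 0.125, so they were not used for calls. Libraries are called a, b and c by falling depth. Where the shared library had no recovered value, the formative catalytic-dead mean stood for it in the formative knockout level.

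Tests used limma 3.58.1 (R 4.3.3), without a replicate block, with weights from a lowess trend (span 0.3) of SD on mean and a moderated variance with trend. A filter of 0.98 CPM (10 counts in a library of median size) in 3 libraries passed 16540 genes; unrecovered values counted as passing. Rose and fell mean a Benjamini-Hochberg adjusted p under 0.05. All 10 members were named; of each list, at most the 3 genes that rose most and the 3 that fell most. Some genes that this rule or the likeness ranking names are not reported here. The prior count understates changes of low genes. Replicates were cultured and collected independently, per the series' design text. The scripts were tested on simulated data.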

Additional observations from a re-analysis of the deposited data

Results flagged for a closer look

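The response to withdrawal was compared between lines by an interaction term, and 3 differences passed the test. For Cdh2, knockout minus floxed was 3.26, with all 3 knockout libraries higher in formative than in naive cells, and all 3 formative knockout libraries above the 3 formative floxed ones. For Cldn7, knockout minus floxed was -1.22 and catalytic-dead minus wild type -2.41; in each of the 4 lines every formative library was above every naive one. The same floxed libraries enter both differences of knockout minus floxed, the wild-type libraries enter that of catalytic-dead minus wild type, and groups of 3 libraries were too small for a test of single outlying samples.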

How the results depend on the processing

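Of 759 alternative values of 64 results, 718 kept their side of the threshold, 32 no longer passed and 9 newly passed. Of the 718, 697 also kept their sign and 21, of 14 results, changed it; 0 of the sign changes involved a value past the threshold. Fewer genes passed with only the groups of a contrast in the model for naive knockout against floxed (1) and naive floxed against wild type (0), and with a prior count of 0.5 for the difference of responses between knockout and floxed (1). Without weights 2 passed for naive catalytic-dead against wild type and 3 for naive floxed against wild type. Leaving out 1 library gave 1 to 2 genes for naive knockout against floxed, 0 to 1 for naive catalytic-dead against wild type, 0 to 2 for naive floxed against wild type, 1 to 2 for the response of knockout minus floxed and 0 to 2 for that of catalytic-dead minus wild type; the cause was not tested. Leaving out a naive wild-type library leaves 1, assumed to vary like the other groups. No paired analysis was possible because the deposited columns carry no replicate numbers. Exact sign flips could not pass the threshold with 4 lines. Depth limits Cdh2, with 3 to 91 counts per library, and abundance limits Cdh1, which had no library counts.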
